A study of Mus musculus with 22 samples.

Results

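Left-sided biopsies of the primary motor cortex (M1) were compared between 2 genotypes of C57BL/6 mice, all of them male and 16 to 20 weeks old. BERKO mice, named for the knockout of estrogen receptor beta (ERβ, the product of Esr2), contributed 5 left biopsies and wild-type (WT) mice 6, so that 11 of the 22 biopsies of the series entered the comparison. The other 11 biopsies came from the right M1 of the same mice and served only as a second reading. Each biopsy was a needle puncture of 1 mouse, of which 10 ng of total RNA was sequenced from the 5' ends of transcripts by STRT, a barcoded template-switching method. The labels give the genotype but not the construct behind it, so which part of Esr2 was disrupted is not known here. Members were taken by side and genotype alone, with no measured value involved.

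ERβ is a ligand-activated transcription factor that binds DNA as a dimer at estrogen response elements, palindromes of the half-site AGGTCA. It is one of a pair of nuclear estrogen receptors, and in the brain it has been described in neurons and glia. M1 holds the layer 5 neurons that project to the spinal cord, together with intratelencephalic projection neurons, inhibitory interneurons, astrocytes, oligodendrocytes, microglia and vessels. Because a needle biopsy mixes all of these, fewer cells of a type and less RNA per cell cannot be told apart in any value below.

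Since STRT reads start at the transcript's 5' end, the bases just upstream of 4 genes are shown that the results below turn on: Rpl22l1, the gene without a read in any BERKO left biopsy, and Cd200, Bex1 and Tcta, the 3 lower genes with the smallest p whose reads came almost wholly from 1 feature in the 5' UTR. Each line gives the 250 bases before the annotated start, 5′ to 3′, from RefSeq on build GRCm38.p6, with GC boxes (GGGCGG, either strand) and TATA boxes (TATAAA, either strand) in capitals. They lie at chr3:28805258-28805507 (plus strand), chr16:45409054-45409303 (minus strand), chrX:136215514-136215763 (minus strand) and chr9:108306160-108306409 (minus strand).
Rpl22l1: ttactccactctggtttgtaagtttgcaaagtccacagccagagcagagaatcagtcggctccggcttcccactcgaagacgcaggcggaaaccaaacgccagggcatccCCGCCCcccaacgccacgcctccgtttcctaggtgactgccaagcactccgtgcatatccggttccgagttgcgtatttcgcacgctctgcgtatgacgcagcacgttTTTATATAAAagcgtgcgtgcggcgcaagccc
Cd200: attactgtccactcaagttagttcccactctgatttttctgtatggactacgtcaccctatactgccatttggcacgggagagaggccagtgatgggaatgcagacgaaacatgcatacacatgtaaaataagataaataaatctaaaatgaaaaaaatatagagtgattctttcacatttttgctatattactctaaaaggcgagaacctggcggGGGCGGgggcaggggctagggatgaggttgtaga
Bex1: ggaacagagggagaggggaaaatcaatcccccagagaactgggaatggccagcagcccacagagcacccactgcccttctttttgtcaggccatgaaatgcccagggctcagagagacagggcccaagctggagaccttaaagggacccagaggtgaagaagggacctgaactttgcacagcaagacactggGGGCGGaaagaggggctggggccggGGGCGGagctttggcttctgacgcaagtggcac
Tcta: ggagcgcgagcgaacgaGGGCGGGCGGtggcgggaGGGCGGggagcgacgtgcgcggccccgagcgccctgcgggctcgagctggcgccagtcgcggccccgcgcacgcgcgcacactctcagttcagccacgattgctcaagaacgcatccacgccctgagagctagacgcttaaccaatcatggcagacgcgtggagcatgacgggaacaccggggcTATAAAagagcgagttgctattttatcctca
Neither AGGTCA nor its reverse complement TGACCT lies in any of these 4 windows. Of the 24 leading genes defined below and Rpl22l1, 20 had an entry with 25 windows between them, and 0 of the 25 held the half-site, against 14.0% of all 32851 windows of that length. The full palindrome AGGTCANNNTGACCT was in 0 of the 25 and in 0.0213% of all windows. GC boxes were in 19 of the 25 windows (32.7% of all windows) and TATA boxes in 2 of the 25, those of Rpl22l1 and Tcta (12.4% of all windows). These are matches of letters in a short window. They say nothing of where ERβ binds.

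Total reads per left biopsy ranged from 249751, in BERKO replicate 5, which was sequenced in 1 lane, to 1255904 in WT replicate 3. WT biopsies held 858000 ± 296200 reads (SD, n = 6) and BERKO biopsies 569600 ± 203000 (SD, n = 5), a log2 difference of -0.62 (exact permutation test over 462 assignments, p = 0.108). The left WT biopsies have letters B and C in a code of their column names and the BERKO ones E and F. The labels do not say what this code is. If it gives the position on a plate, position and genotype cannot be told apart. WT replicates 1 and 2 stood apart on the first principal component, at -39.9 and -40.5 against 2.1 to 18.1 for the other 9 left biopsies. Values without them are given beside many of the genes and lists below, though not beside all whose differences moved. Nothing in the labels ties a number in one genotype to the same number in the other.

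Esr2, the targeted gene, was too rare to check the labels. It had 0 reads in each of the 6 WT left biopsies, where 3 reads, the limit that a count of 0 allows, correspond to 2.52 to 5.58 CPM (counts per 1000000 gene reads). Among the BERKO left biopsies it had 6 reads in replicate 3, 4 in replicate 5 and 0 in the other 3. All 10 of these reads came from 1 feature in the coding sequence, on chromosome 12 at position 77246443 of build mm9, minus strand. The right biopsies held 3 reads, all in WT replicate 1 and upstream of the gene. These numbers show neither presence of the transcript in WT nor its loss in BERKO.

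No gene passed the test between the genotypes in the left cortex. Of 6616 genes tested with edgeR's quasi-likelihood test and Benjamini-Hochberg adjustment, 0 (0%) had an adjusted p under 0.05, the smallest being 0.202. At an unadjusted p under 0.05 there were 447 genes, where 331 would be passed by chance at that level. Of these, 211 (3.19% of all tested) were higher and 236 (3.57%) lower in BERKO. DESeq2 passed 2 genes, Lingo1 (higher) and Rpl22l1 (lower), limma-voom 0, and edgeR without the filter on low counts 22 of 13367. Over all tested genes, 3298 had a positive log2 change and the median was 0.00. The genes below are therefore those nearest to the threshold, and each value is a difference in these 11 biopsies that missed it.

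Rpl22l1, which encodes a paralog of the ribosomal protein eL22, was the only gene with reads in every WT left biopsy and none in any BERKO left biopsy, of 13367 genes with a read. No gene showed the reverse. The WT biopsies held 26, 4, 12, 13, 22 and 5 reads in replicates 1 to 6, and all 5 BERKO biopsies held 0. Pooled over the biopsies this was 16.8 CPM against a limit of 1.11 CPM (3 reads over the BERKO group), which is 15.2-fold lower. This ratio covers counting error in the BERKO reads only. It leaves out the spread between mice and the error in the WT value, so it is not a lower bound for the genotypes. The pooled right reads were 11-fold lower, at 33.2 CPM in WT and 3.01 CPM in BERKO. Rpl22l1 was too low on the left to enter the edgeR test, and DESeq2 gave it an adjusted p of 0.0332. On the right it had 17 to 77 reads per WT biopsy and 0, 3, 3, 0 and 6 in the BERKO biopsies, a log2 change of -3.39 ± 0.64 (SE, edgeR adjusted p = 0.023). The groups overlapped on neither side. Its transcripts share stretches of at least 95% identity with 4 other annotated genes, the longest 395 bases at 99.5% with Gm15421, so that the authors' counting may have placed some of its reads elsewhere. All of its reads came from 1 feature in the 5' UTR, on chromosome 3 at 28704433 (mm9).

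The 24 genes with the smallest p and a mean of at least 20 reads in the higher genotype were 8 with higher and 16 with lower levels in BERKO, with adjusted p from 0.202 to 0.567. For 9 of the 24 the genotypes did not overlap. Over all tested genes, all BERKO biopsies lay above all WT biopsies for 29 genes (0.438%) and below them for 40 (0.605%). Since the 24 were ranked on this comparison, their count without overlap is a description.

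**Figure D1:**
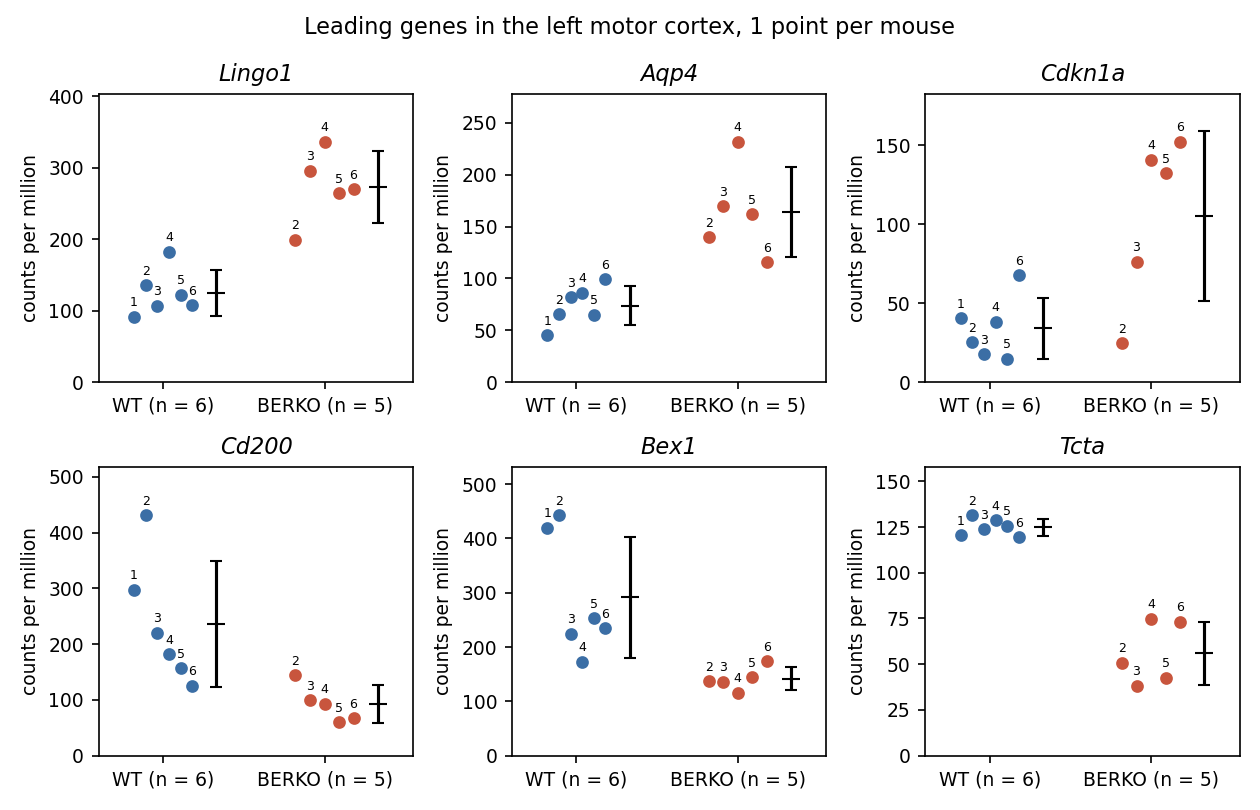
CPM (y axis, linear, from 0) of 6 leading genes in each left biopsy, with the replicate number above each point and the mean ± SD as a bar beside each group (6 WT, 5 BERKO). Lingo1, Aqp4 and Tcta do not overlap between the genotypes, while Cdkn1a in BERKO replicate 2 lies among the WT values and Cd200 and Bex1 are highest in WT replicates 1 and 2.

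Lingo1, a membrane protein of neurons that limits axon regeneration and myelination, had the smallest p. It stood at 91.5, 115 and 182 CPM (lowest, median and highest of the 6 WT) and at 199, 295, 336, 264 and 270 CPM in BERKO replicates 2 to 6. Every BERKO biopsy was above every WT biopsy. The log2 difference was 1.13 ± 0.23 (SE, edgeR adjusted p = 0.202), and it was 1.08 ± 0.24 without WT replicates 1 and 2. Of its left reads, 75.1% lay in the coding sequence or 3' UTR, not at the annotated start. On the right, Lingo1 differed by 0.83 ± 0.26 with overlap.

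Aqp4, the water channel of astrocyte endfeet, stood at 45.0, 73.7 and 99.4 CPM (lowest, median, highest) in WT and at 140, 169, 232, 162 and 116 CPM in BERKO replicates 2 to 6. These ranges did not overlap. Its log2 difference of 1.15 ± 0.27 (SE, edgeR adjusted p = 0.336) was 0.99 ± 0.28 without WT replicates 1 and 2 and 0.66 ± 0.33 on the right. Socs7, a suppressor of cytokine signalling family member, had its WT and BERKO biopsies at 9.94 to 23.2 and 34.9 to 68.6 CPM. It had no overlap, but 100% of its reads lay in the coding sequence or 3' UTR (log2 difference 1.81 ± 0.43, adjusted p = 0.336 in edgeR).

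Cdkn1a encodes p21, the inhibitor of cyclin-dependent kinases. It stood at 14.9, 31.7 and 67.6 CPM (lowest, median, highest) in WT and at 24.7, 76.3, 141, 132 and 152 CPM in BERKO replicates 2 to 6. Only BERKO replicate 2 lay within the WT range. The log2 difference was 1.65 ± 0.43 (SE, edgeR adjusted p = 0.489), and 1.66 ± 0.48 without WT replicates 1 and 2. On the right it was 1.22 ± 0.32 and the genotypes did not overlap, at 50.7 ± 29.3 CPM in WT and 118 ± 12.2 CPM in BERKO (SD, n = 6 and 5). The list of p53 targets and cell cycle inhibitors, of which Cdkn1a is one, pointed both ways. Of its 12 tested members 5 had a positive log2 change and 7 a negative one, with a median of -0.28. Its median was 0.64 with thinned reads, 0.75 with 1 lane per biopsy and 0.14 to 0.49 without WT replicate 1, 3, 4 or 5. Each of these covers only the members that passed the expression filter of that setting. Those fits tested 3918, 3363 and 6225 to 6268 genes in all, against 6616, so the medians need not be of the same members and show no change of direction by themselves.

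The other leading genes that were higher in BERKO were Hivep1, a zinc finger transcription factor (22.8 ± 10.7 CPM in WT and 75.3 ± 40.7 in BERKO, SD), and Cap1, which recycles actin monomers (42.2 ± 21.3 and 106 ± 40.8). Cntnap1, the axonal protein that anchors paranodal myelin loops, stood at 64.9 ± 27.2 CPM in WT and 138 ± 47.6 in BERKO. Pam, the enzyme that amidates neuropeptides, stood at 20.9 ± 11.3 and 60.9 ± 21.8 CPM, with 95.2% of its left reads in the coding sequence or 3' UTR. All 4 overlapped between the genotypes.

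Tcta gave the tightest contrast among the lower genes. Its 6 WT biopsies lay between 119 and 132 CPM, and its BERKO biopsies stood at 50.9, 38.2, 75.0, 42.6 and 73.1 CPM in replicates 2 to 6. The WT spread was 4.71 CPM (SD, n = 6) around a mean of 125, and no BERKO biopsy came near it. These values rest on 60 to 147 reads per WT biopsy and on 10 to 48 per BERKO biopsy. At such counts the small WT spread cannot be read as low variation between mice. The log2 difference of -1.15 ± 0.28 (SE, edgeR adjusted p = 0.336) was -1.13 ± 0.30 without WT replicates 1 and 2. On the right the WT biopsies spread further, at 99.1 ± 39.9 CPM against 68.9 ± 26.8 in BERKO (SD), and overlapped.

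Cd200, the neuronal surface ligand that restrains microglia, and Bex1, a small brain-expressed adaptor protein, had lower means in BERKO by an amount that depended on WT replicates 1 and 2. Cd200 stood at 298, 431, 221, 182, 156 and 125 CPM in WT replicates 1 to 6 and between 59.7 and 144 CPM in BERKO. WT replicate 6 lay within the BERKO range. Its log2 difference of -1.32 ± 0.30 (SE) was -0.86 ± 0.28 without WT replicates 1 and 2, and -0.20 ± 0.25 on the right. Bex1 stood at 420 and 443 CPM in WT replicates 1 and 2, between 173 and 253 CPM in the other 4 WT biopsies and between 116 and 174 CPM in BERKO. Its difference of -1.04 ± 0.25 was -0.64 ± 0.23 without those replicates. Bex1 shares 265 bases at 98.9% identity with Bex4.

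Pgrmc1, Snx10, Vstm2a and Zwint likewise had smaller differences without WT replicates 1 and 2. Pgrmc1, a heme-binding membrane protein named as a progesterone receptor component, stood at 659, 872 and 549 CPM in WT replicates 1, 2 and 6, between 286 and 341 CPM in the other 3 WT biopsies and between 209 and 327 CPM in BERKO. Its log2 difference was -0.97 ± 0.26 (SE) with all biopsies, -0.53 ± 0.23 without WT replicates 1 and 2 and 0.05 ± 0.17 on the right. Snx10, a sorting nexin of endosomes, went from -0.93 ± 0.25 to -0.52 ± 0.23 without WT replicates 1 and 2. Vstm2a went from -1.27 ± 0.35 to -0.77 ± 0.35, and Zwint from -0.61 ± 0.17 to -0.39 ± 0.17.

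Of the remaining lower genes, 5 did not overlap between the genotypes. Xpo5 exports microRNA precursors from the nucleus, and it stood at 32.9 to 141 CPM in WT and 17.5 to 24.9 CPM in BERKO (log2 difference -1.59 ± 0.43, and -1.08 ± 0.46 without WT replicates 1 and 2, SE). Cnbp, a zinc finger protein that binds nucleic acids, stood at 1097 to 1432 CPM in WT and 823 to 932 CPM in BERKO. Cox20, an assembly factor of cytochrome c oxidase, stood at 126 to 231 CPM in WT and 81.3 to 100 CPM in BERKO. Nsg1, an endosomal protein of neurons, stood at 456 to 762 CPM in WT and 339 to 428 CPM in BERKO. Its 2 highest WT values were those of replicates 1 and 2, and its log2 difference of -0.64 ± 0.18 was -0.44 ± 0.18 without them (SE). Ndufa6 is described with complex I below. Efnb3, Zbtb20, Plppr3 and Ranbp6 had mean differences of -2.34 ± 0.61, -1.39 ± 0.37, -1.56 ± 0.46 and -1.87 ± 0.56 on the log2 scale (SE), each with overlap. Efnb3 and Zbtb20 were highest in WT replicates 1 and 2, and without these biopsies they differed by -1.64 ± 0.71 and -0.95 ± 0.37. For Efnb3, 77.45% of the left reads lay in the coding sequence or 3' UTR, and for Zbtb20 47.9% lay in 1 intron feature. Of the 24 leading genes and Rpl22l1, 12 share stretches of at least 95% identity over 100 bases with another annotated gene. The search covered both strands and did not leave out genes that overlap at the same locus. A shared stretch therefore need not mean that reads were divided in the authors' counting, and this was not tested. The longest are 593 bases of Cox20 with Hnrnpu and 574 bases of Nsg1 with Stx18, both at 100%, and 484 bases of Zwint at 95.5% with Gm8099. Stretches of Cdkn1a matched 91 other genes and those of Pam 32.

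Reads from the mitochondrial genome, which encodes some respiratory chain subunits and their ribosomal RNAs, made up a smaller mean share in BERKO. They were 1.65%, 1.48%, 1.79%, 2.06%, 1.17% and 0.876% of endogenous reads in WT replicates 1 to 6, and 0.763%, 0.81%, 0.921%, 0.635% and 0.583% in BERKO replicates 2 to 6. Only WT replicate 6 and BERKO replicate 4 crossed over. The means were 1.504% ± 0.428 and 0.742% ± 0.136 (SD, n = 6 and 5), a log2 difference of -0.98. The exact two-sided permutation test gave p = 0.00649, adjusted to 0.0714 over the 11 read shares and totals compared, so the difference missed the threshold. Without WT replicate 6 it was -1.13 and passed (exact permutation test, adjusted p = 0.0437), and without WT replicates 1 and 2 it was -0.93 (adjusted p = 0.0873). On the right the difference was -1.03, with p = 0.00217, the smallest that the exact permutation test can give, and an adjusted p of 0.0119. The left and right differences were 0.04 apart (exact permutation test, p = 0.881).

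**Figure D2:**
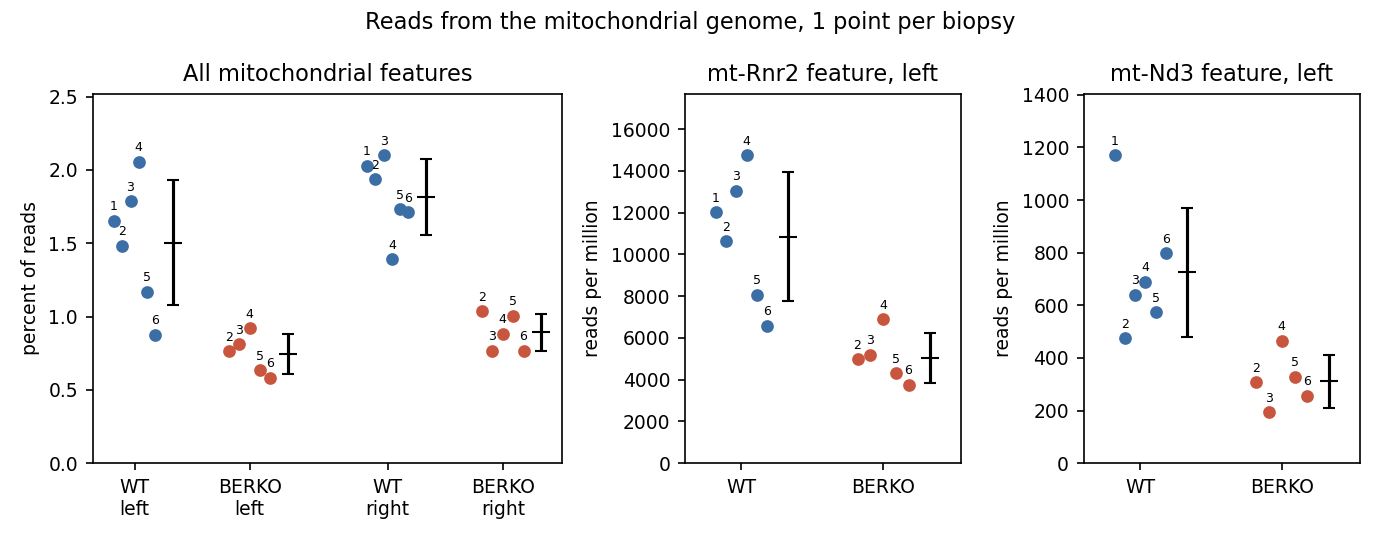
Mitochondrial reads as a percent of endogenous reads (first panel, both sides) and RPM (reads per 1000000 endogenous reads) in the features whose recorded positions are the first bases of mt-Rnr2 and mt-Nd3 (left biopsies), all on linear axes from 0, with replicate numbers above the points and mean ± SD as bars. The left BERKO biopsies lie between 0.583% and 0.921% and the left WT biopsies between 0.876% and 2.06%.

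Within the mitochondrial genome, 71% of the left reads fell in 1 feature, chrM:1-4808, whose recorded position, 1094, is the first base of mt-Rnr2, the large mitochondrial ribosomal RNA (GENCODE M21, GRCm38). This feature held 10850 ± 3083 RPM (per 1000000 endogenous reads) in WT and 5030 ± 1187 in BERKO (SD), a log2 difference of -1.11 ± 0.20 (SE, edgeR adjusted p = 0.203). It was the feature with the smallest p of 7506 tested, of which 0 (0%) passed and 506 had an unadjusted p under 0.05. The feature at mt-Nd3, a complex I subunit, held 476 to 1171 RPM in WT and 195 to 466 in BERKO. After the TMM scaling of the test the ranges were 540.8 to 1365 and 220.8 to 557.4 and overlapped (log2 difference -1.23 ± 0.25, edgeR adjusted p = 0.342). The feature chrM:11613-15689, with its recorded position at the first base of mt-Cytb, which encodes cytochrome b of complex III, differed by -0.84 ± 0.24 and overlapped. Each of these features begins before the gene at its recorded position, so its reads need not all belong to that gene. A feature within mt-Co1 at position 5406 had 306 ± 114 RPM in WT and 318 ± 94.3 in BERKO (SD), so not all mitochondrial features were lower. Another within mt-Co1, at 6190, had 196.5 ± 93.2 RPM in WT and 73.3 ± 42.9 in BERKO (log2 difference -1.38 ± 0.41, edgeR adjusted p = 0.589). A minus-strand feature at 2338 was higher, at 4.45 ± 5.055 RPM in WT and 42.65 ± 39.4 in BERKO (3.17 ± 0.73, edgeR adjusted p = 0.499). Both overlapped between the genotypes.

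The share without the mt-Rnr2 feature was 0.419% ± 0.122 in WT and 0.239% ± 0.0374 in BERKO (SD; exact permutation test, p = 0.0173, adjusted to 0.026 over 3 measures of the mitochondrial reads). Plus-strand reads made up 96.5% to 98.2% of mitochondrial reads in WT and 95.1% to 96.3% in BERKO, without overlap (exact permutation test, p = 0.00433, adjusted to 0.013). These 3 measures were chosen after the mitochondrial share had been seen. The BERKO biopsies also had fewer reads on average (above), and on the right total reads differed by -0.64 on the log2 scale (exact permutation test, adjusted p = 0.0476). With every biopsy reduced to 1 lane the share differed by -0.99, but this does not bring the genotypes to equal depth. Whether depth has a part in the share was not tested. Ribosomal repeat reads made up 0.361% ± 0.173 in WT and 0.504% ± 0.149 in BERKO (SD; exact permutation test, p = 0.13, adjusted 0.27).

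Most nuclear genes of complex I, the first enzyme of the respiratory chain, had slightly lower levels in BERKO. Of 36 tested nuclear subunits of complex I, 28 had a negative log2 change and 8 a positive one, against 50.2% negative over all tested genes. The median was -0.16 against 0.00 for all genes, and 5 members had an unadjusted p under 0.05, all lower, against 3.57% of all genes. For 4 of the 36 every BERKO biopsy was below every WT biopsy, against 0.605% of all genes: Ndufa6, Ndufa1, Ndufv3 and Ndufs5. Without WT replicates 1 and 2, 4 of the 36 were positive and the median was -0.15, and with reads of promoter and 5' UTR features alone it was -0.07. On the right the median was -0.04.

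Ndufa6, an accessory subunit of complex I, stood at 841, 980 and 1271 CPM (lowest, median, highest) in WT and at 621, 745, 604, 661 and 785 CPM in BERKO replicates 2 to 6. Its log2 difference was -0.59 ± 0.16 (SE, edgeR adjusted p = 0.489), and -0.68 ± 0.17 without WT replicates 1 and 2. Ndufa1 stood at 286 to 440 CPM in WT and 207 to 256 CPM in BERKO. Ndufv3 stood at 764 to 1018 CPM in WT and 520 to 763 CPM in BERKO, the closest approach of the 4. Ndufs5 stood at 922 ± 146 CPM in WT and 702 ± 29.0 CPM in BERKO (SD).

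The other nuclear mitochondrial lists also had negative medians. In complex IV with cytochrome c, 11 of 13 members had a negative log2 change and the median was -0.04. In complexes II and III 7 of 13 were negative (median -0.08), near the share over all genes, with Uqcrq, Uqcr10 and Uqcrb at an unadjusted p under 0.05. Uqcrb, which binds ubiquinone in complex III, differed by -1.12 ± 0.48 on the left with overlap and by -1.48 ± 0.27 on the right, where it passed the test (SE, edgeR adjusted p = 0.02). In the ATP synthase 12 of 19 were negative (median -0.12), and of the mitochondrial ribosomal proteins 50 of 70, with a median of -0.18. The right-side medians of these 4 lists lay between -0.01 and 0.09. Cytosolic ribosomal proteins had a median of -0.04 over 82 genes. Scaling to the spike-ins raised the median of all genes to 0.19. On that scale the medians of complex I and of the mitochondrial ribosomal proteins were 0.07 and -0.01. Those of the ATP synthase, complex IV, and complexes II and III were 0.11, 0.14 and 0.11. Relative to the median of all genes, which takes the spike-in shift out again, complex I and the mitochondrial ribosomal proteins stood at -0.12 and -0.20. The lower levels of these lists are described relative to other genes only. The spike-in share was 0.203% ± 0.059 in WT and 0.167% ± 0.0345 in BERKO (SD; exact permutation test, p = 0.31). Whether their amounts per biopsy were lower was not tested.

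Markers of astrocytes, the cells that clear glutamate and potassium, mostly had higher mean levels in BERKO. Of 28 tested, 24 had a positive log2 change, 7 of them at an unadjusted p under 0.05 and none lower at that level, with a median of 0.30. Over all tested genes 49.9% were positive and 3.19% were higher at that level. Mlc1, an endfoot membrane protein, stood at 155 to 356 CPM in WT and 328 to 393 CPM in BERKO. Slc1a2, the main glutamate transporter, differed by 0.51 ± 0.19 on the log2 scale (SE). Clu, a secreted chaperone, differed by 0.39 ± 0.15. None passed the adjusted test (edgeR adjusted p from 0.336 to 0.659 for these and Aqp4). Without WT replicates 1 and 2, 22 of 28 were positive and the median was 0.17, and on the right it was 0.29.

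Summed over the whole astrocyte list, the level was 28420 to 44600 CPM in WT and 38130 to 54110 CPM in BERKO, the lowest in WT replicate 1 and the highest in BERKO replicate 4. No member of the list was without reads.

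Positive medians were also found for microglia, endothelial cells, meningeal fibroblasts, and pericytes with smooth muscle. Of 22 microglial genes 20 were positive (median 0.32, and 0.27 without WT replicates 1 and 2), led by Cx3cr1, the fractalkine receptor, at 24.6 to 46.4 CPM in WT and 36.4 to 102 CPM in BERKO. Of 16 endothelial genes 13 were positive (median 0.43, and 0.29 without those replicates). Cldn5, the tight junction protein of brain vessels, stood at 24.7 to 170 CPM in WT and 173 to 221 CPM in BERKO, without overlap. Of 13 genes of meningeal fibroblasts 9 were positive (median 0.46, and 0.30), with Col1a2 at 1.45 to 30.8 CPM in WT and 19.8 to 116 CPM in BERKO. Of 8 genes of pericytes and smooth muscle 7 were positive (median 0.32, and 0.26). The right-side medians of these 4 lists were 0.31, 0.43, 0.62 and 0.61.

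**Figure D3:**
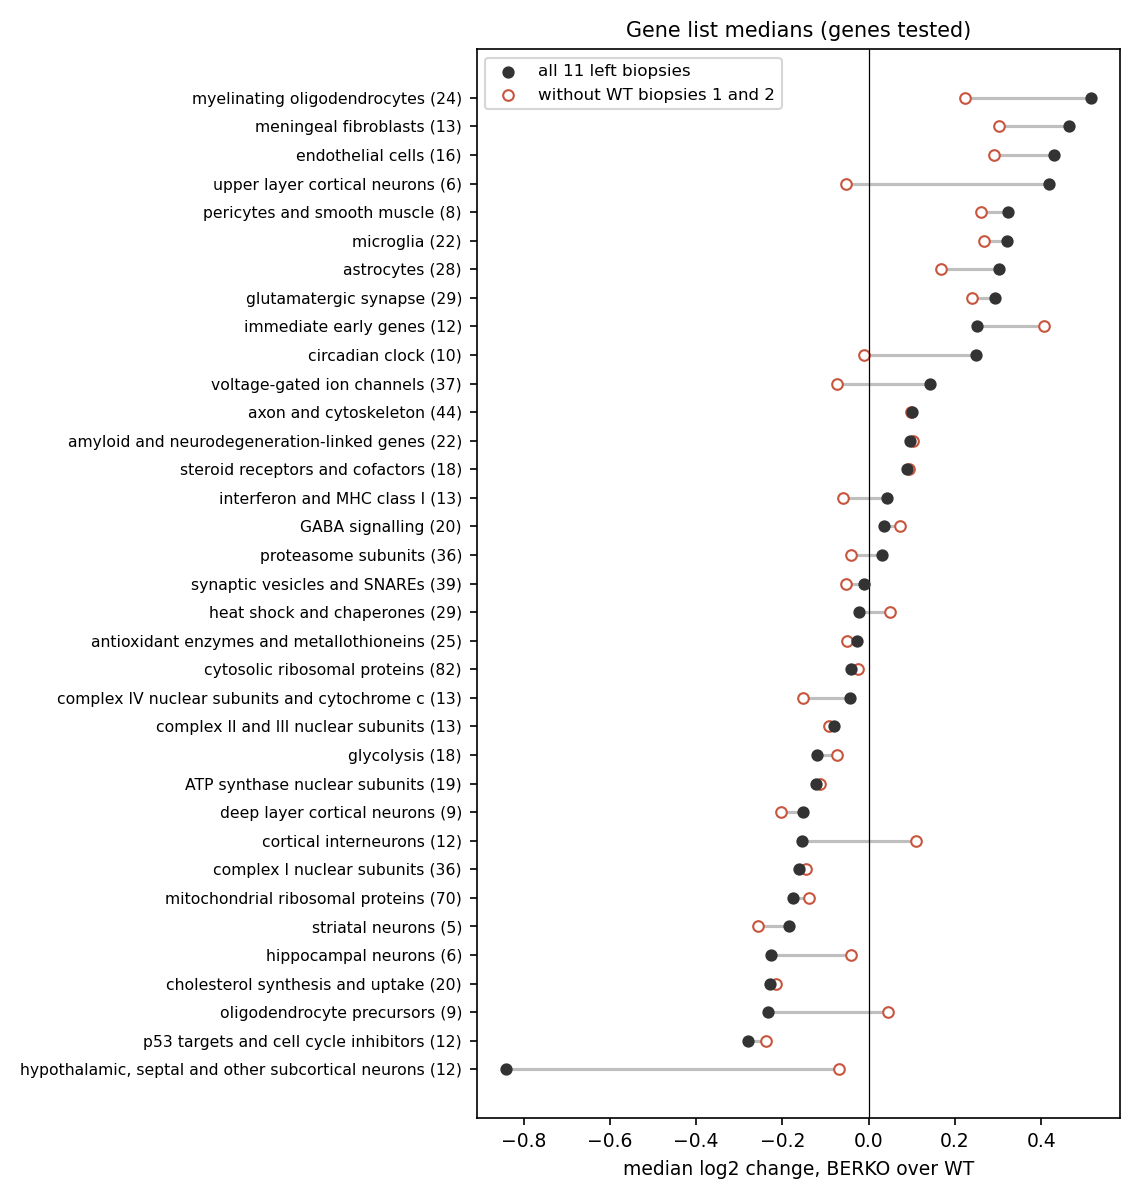
Median log2 change, BERKO over WT, of each gene list with at least 5 tested genes (number in parentheses), with all 11 left biopsies (filled) and without WT biopsies 1 and 2 (open). Astrocytes, microglia, endothelial cells, pericytes with smooth muscle, meningeal fibroblasts and myelinating oligodendrocytes have positive medians in both, while the subcortical list moves from -0.84 to -0.07 and upper layer neurons from 0.42 to -0.05.

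Myelinating oligodendrocytes gave the largest positive median, 0.51, with 23 of 24 tested genes positive and 4 of them at an unadjusted p under 0.05, against 3.19% of all genes. Cldn11, the tight junction protein of myelin, stood at 40.7 to 162 CPM in WT and at 534, 129, 95.4, 154 and 155 CPM in BERKO replicates 2 to 6. Replicate 2 was far above the other 4. The summed list was 28890 CPM in that biopsy, 9144 to 11940 CPM in the other BERKO biopsies, 5057 and 4304 CPM in WT replicates 1 and 2, and 11020 to 13690 CPM in the other WT biopsies. Without WT replicates 1 and 2 the median was 0.22 and 16 of the 24 genes were positive, and on the right the median was -0.01.

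WT replicates 1 and 2 also differed from the other 9 left biopsies in their neuronal markers. The list of hypothalamic, septal and other subcortical neurons summed to 7355 and 8038 CPM in these 2 biopsies, 2108 to 3307 CPM in the other 4 WT and 2132 to 2662 CPM in BERKO. Upper layer cortical markers summed to 202 and 352 CPM in the same 2 biopsies, 904 to 1599 CPM in the other WT and 1037 to 1631 CPM in BERKO. Of the 31 subcortical genes in the table, 12 were tested and 5 (Avp, Agrp, Ghrh, Nkx2-1 and Esr1) had no read in any left biopsy. The part of tissue composition in the differences above was not tested beyond leaving these 2 biopsies out.

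**Figure D4:**
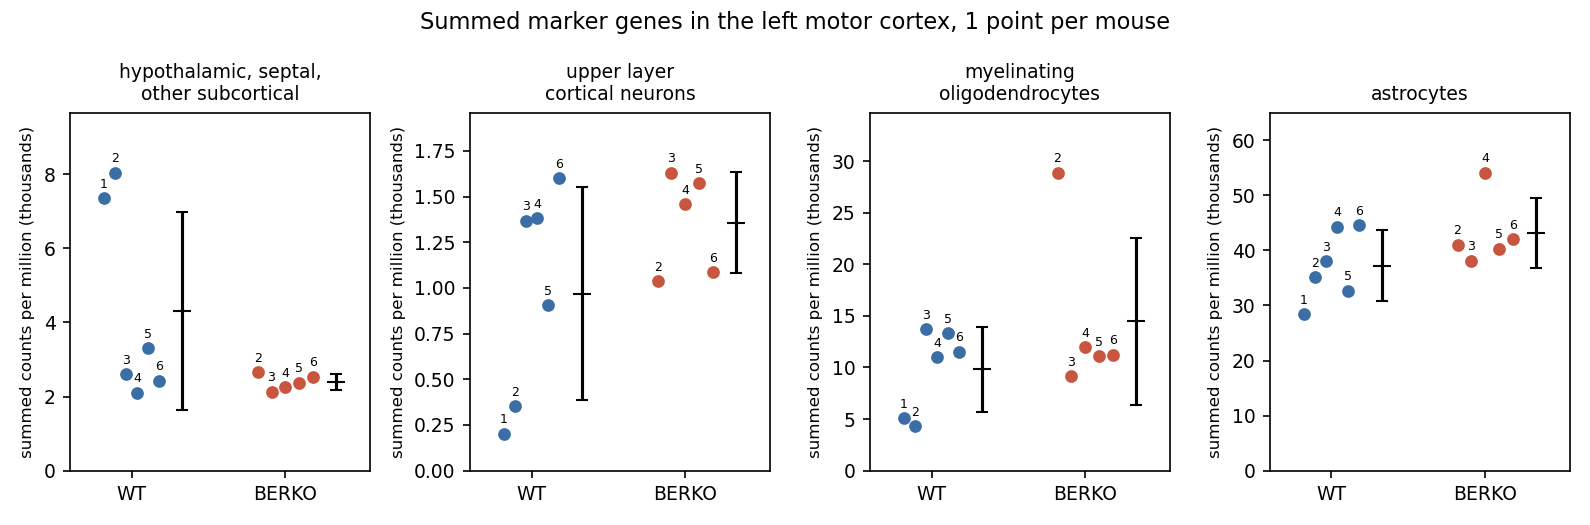
Summed CPM (divided by 1000, linear axes from 0) of 4 marker lists in each left biopsy, with replicate numbers above the points and mean ± SD as bars. WT replicates 1 and 2 are highest for subcortical markers and lowest for upper layer and oligodendrocyte markers, and BERKO replicate 2 is highest for oligodendrocyte markers.

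All 12 tested subcortical genes had a negative log2 change, with a median of -0.84. Without the same 2 biopsies the median was -0.07 and 5 of the 12 were positive, and on the right, where every biopsy entered, the median was -0.60. Zcchc12, a transcriptional co-activator of BMP signalling, stood at 138 and 255 CPM in WT replicates 1 and 2, between 15.2 and 41.3 CPM in the other WT biopsies and between 4.98 and 21.8 CPM in BERKO. Its log2 difference went from -2.39 ± 0.77 to -0.66 ± 0.63 (SE). Ndn, an imprinted gene of neurons, went from -0.86 ± 0.29 to -0.32 ± 0.22. Resp18, a secretory granule protein, went from -0.95 ± 0.34 to -0.31 ± 0.22. Upper layer markers had a median of 0.42 with all biopsies and -0.05 without those 2.

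Among deep layer markers 6 of 9 were lower in mean, with a median of -0.15 that was -0.20 without WT replicates 1 and 2. Crym, a thyroid hormone-binding protein of layer 5, stood at 453 and 240 CPM in those biopsies, between 19.9 and 68.5 CPM in the other WT and between 9.09 and 33.2 CPM in BERKO. Its log2 difference of -2.87 ± 0.92 was -1.05 ± 0.54 without them (SE). Pcp4, a calmodulin regulator of deep layers, differed by -0.75 ± 0.25 on the log2 scale, and by -0.55 ± 0.26 without those 2 biopsies (SE). Rprm differed by -1.31 ± 0.54, and by -0.20 ± 0.52 without them.

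Interneuron genes pointed both ways, with a median of -0.16 over 12 genes that was 0.11 without WT replicates 1 and 2. Vip, the peptide of one interneuron class, stood at 24.7 to 133 CPM in WT and 114 to 196 CPM in BERKO (log2 difference 1.11 ± 0.34, SE). Sst, the peptide of another class, stood at 253 to 745 CPM in WT and 234 to 458 CPM in BERKO (-0.68 ± 0.25). Npy differed by 0.48 ± 0.22, and by 0.22 ± 0.19 without WT replicates 1 and 2. Gad2, which makes GABA, differed by -0.85 ± 0.29, and by -0.56 ± 0.30 without them. In the GABA list 12 of 20 genes were positive, with a median of 0.04.

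In the glutamatergic synapse list 22 of 29 genes were positive, with a median of 0.29 (0.24 without WT replicates 1 and 2, and 0.24 on the right). Counting only reads in promoter and 5' UTR features, the median was 0.02. Ppp3ca, the calcineurin catalytic subunit, had 87.1% of its reads in the coding sequence or 3' UTR and differed by 0.67 ± 0.25 (SE). Homer2, a postsynaptic scaffold, had 82.3% of its reads there, and its difference of 1.49 ± 0.60 came from BERKO replicate 4, at 177 CPM against 4.57 to 29.8 CPM in the other 4. It was 0.19 without that biopsy. Gria1, an AMPA receptor subunit, differed by -0.83 ± 0.37, and by -0.02 ± 0.23 without WT replicates 1 and 2. Reads in coding sequence features made up 8.75% ± 1.68 of the endogenous reads in WT and 10.4% ± 0.768 in BERKO (SD; exact permutation test, p = 0.0866). On the log2 scale this share differed by 0.26 on the left and by 0.38 on the right (exact permutation test, adjusted p = 0.03175 on the right). The share of 3' UTR features differed by 0.26 on the left and 0.49 on the right (exact permutation test, p = 0.147 and adjusted p = 0.0119). Both shares thus passed on the right, as the mitochondrial share did.

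Immediate early genes, which neurons transcribe within minutes of activity, were positive for 9 of 12, with a median of 0.25 and 0.41 without WT replicates 1 and 2. Arc, a regulator of AMPA receptor trafficking, stood at 18.9 to 152 CPM in WT and 59.7 to 296 CPM in BERKO, with overlap (log2 difference 1.33 ± 0.49, SE). Dusp6 and Egr3 differed by 1.06 ± 0.46 and 1.13 ± 0.51, and Gadd45g by -0.95 ± 0.46. Among steroid receptors and their cofactors 12 of 18 were positive with a median of 0.09, and Esr1, the other estrogen receptor gene, had no read in any left biopsy. Chaperones divided, with 12 of 29 positive. Of the cytosolic chaperonin, Cct8 and Cct2 differed by -0.69 ± 0.21 and -0.54 ± 0.20, while Hsp90b1 of the endoplasmic reticulum differed by 0.48 ± 0.19.

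The remaining lists had medians near that of all genes: -0.01 for synaptic vesicles and SNAREs, 0.10 for axon and cytoskeleton, 0.03 for proteasome subunits, 0.04 for interferon and MHC class I, -0.03 for antioxidant enzymes and 0.10 for genes linked to neurodegeneration. Voltage-gated channels had a median of 0.14 that was -0.07 without WT replicates 1 and 2. Cholesterol synthesis genes had 14 of 20 negative and a median of -0.23, which was -0.21 without those 2 biopsies and 0.02 on the right. In glycolysis 11 of 18 were negative (median -0.12), and Pfkp, a phosphofructokinase, stood at 154 to 187 CPM in WT and 85.3 to 151 CPM in BERKO, without overlap. Lists with few tested members were those of striatal (5 genes, median -0.18), hippocampal (6, -0.23) and thalamic neurons (4, -0.59), oligodendrocyte precursors (9, -0.23), choroid plexus (2, 0.19), blood cells (2, -0.31) and the circadian clock (10, 0.25). The striatal, hippocampal and thalamic medians were -0.26, -0.04 and -0.15 when WT replicates 1 and 2 were left out. Without WT replicates 1 and 2 the medians of precursors, blood cells and the clock had the opposite sign, at 0.05, 0.46 and -0.01, and so had those of proteasome subunits (-0.04), interferon and MHC class I (-0.06) and chaperones (0.05, against -0.02 with all biopsies). The medians of the 38 lists are descriptions, with no test behind them.

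Whether the left difference was matched on the right was tested with the term for genotype by side, blocked on mouse. Of 6894 genes 0 (0%) passed in edgeR, with a smallest adjusted p of 0.998, and 227 had an unadjusted p under 0.05, fewer than the 345 set by that level. Of the 24 leading genes, 22 had the same sign on the right, as had 349 of the 442 genes with an unadjusted p under 0.05 on the left that were tested on both sides and 3922 of all 6519. Cap1 and Pgrmc1 did not: Cap1 differed by 1.33 ± 0.37 on the left and -0.25 ± 0.31 on the right (SE). Its edgeR p for the term was 0.00188 before adjustment. Pgrmc1 differed by -0.97 ± 0.26 and 0.05 ± 0.17, and its edgeR p for the term was 0.002 before adjustment. Crym came next, with an unadjusted edgeR p of 0.0021. Left and right biopsies came from the same mice and are not independent.

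**Figure D5:**
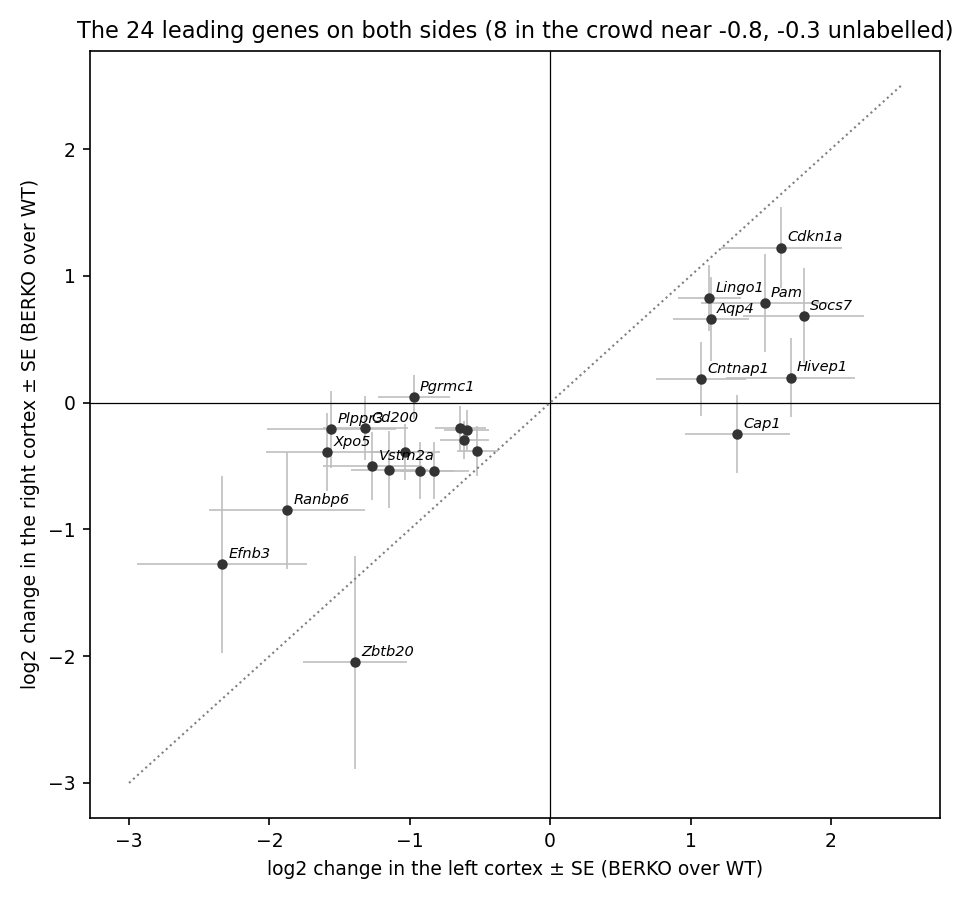
Log2 change, BERKO over WT, of the 24 leading genes on the left (x axis) and right (y axis), each point with its SE from edgeR, and a dotted line where both are equal. Only Cap1 and Pgrmc1 lie in quadrants of opposite sign, and the genes were ranked on the left values, which are the larger for all but Zbtb20.

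On the right, 5 of 7696 genes (0.065%) passed in edgeR. Rpl22l1 and Uqcrb, described above, had lower means in BERKO on both sides. Cdk5r1, the activator of the neuronal kinase CDK5, differed by 0.70 ± 0.54 on the left (0.38 without WT replicates 1 and 2) and 1.67 ± 0.31 on the right (SE; edgeR adjusted p = 0.853 and 0.02). Dcaf17 differed by -0.45 ± 0.58 on the left and -3.22 ± 0.59 on the right. Nr3c2, the mineralocorticoid receptor, had reads in 4 of the 6 WT left biopsies and in 1 of the 5 BERKO left biopsies and was too low to test on the left.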

How the data were processed

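Read counts of 11 left M1 biopsies (6 WT, 5 BERKO mice) were compared, with the 11 right biopsies as a second reading. The deposited table holds read counts as whole numbers for features, which are stretches where 5' ends cluster, each annotated by the authors; per the submitters' processing notes, build mm9, Bowtie and TopHat2 2.0.12 were used. How features were drawn and reads filtered was not found in the labels. The counts are reads after PCR, so floors cover counting error only.

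The 3 lanes of a biopsy were summed (BERKO replicate 5 has 1), using 31 of 64 columns, all of which matched a sample. Features with 1 gene symbol were summed to genes, and the 4.91% of left endogenous reads elsewhere entered only the feature test and the read shares. Spike-ins were left out. Genotypes were compared with edgeR 4.0.16 in R 4.3.3 (quasi-likelihood, robust, TMM factors of 0.936 to 1.05, default expression filter, Benjamini-Hochberg threshold 0.05); the biological coefficient of variation was 42.0%. DESeq2 1.42.0 and limma 3.58.1 were alternatives. SEs were derived from the F statistic and the log2 fold change. CPM is per 1000000 gene reads after TMM. Read shares were compared on the log2 scale with two-sided exact permutation tests over 462 assignments, whose smallest p is 0.00217. Near-identical transcripts (at least 95% over 100 bases) were searched with BLAST 2.17.0 in GENCODE M21. The tests were tested on simulated data.

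Named genes were those past the threshold with a mean of 20 reads in the higher genotype, then the next by p until 24; up to 4 members per list at an unadjusted p under 0.05; the 3 smallest p for genotype by side; Esr2; and the genes passing on the right. One gene that this rule named is not reported here. Other list members, Rpl22l1 and the share of reads by class were picked with their values in view. The comparison, the lists and the rule were chosen with earlier results of these data known. The labels name mice, so p-values measure the spread between mice. Alternatives are given in the closing section.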

Additional observations from a re-analysis of the deposited data

Results flagged for a closer look

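A single biopsy stood far from the rest of its group in 10 of 146 groups examined (2 genotypes for 73 measures: leading genes, read shares and marker list sums). A gap of that size is expected in about 1 group in 20 by chance. BERKO replicate 4 accounted for 4 of them. Its astrocyte list summed to 54110 CPM against 38130 to 42050 in the other BERKO biopsies, its pericyte and smooth muscle list to 1181 CPM against 604 to 759, its deep layer list to 493 CPM against 769 to 828, and its spike-in reads made up 0.226% against 0.144% to 0.166%. In BERKO replicate 2 the myelinating oligodendrocyte list summed to 28890 CPM against 9144 to 11940, and the choroid plexus list to 1311 CPM against 640 to 820.

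Among WT biopsies, Xpo5 stood at 141 CPM in replicate 2 against 32.9 to 62.4 in the others, and the GABA signalling list at 2127 CPM in the same biopsy against 1741 to 1858. The blood cell list summed to 623 CPM in replicate 1 against 79.5 to 215. Ribosomal repeat reads made up 0.684% in replicate 6 against 0.156% to 0.342%, the biopsy with the lowest mitochondrial share among WT.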

How the results depend on the processing

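No gene passed the threshold with median-of-ratios or spike-in scaling, the stricter filter, thinned reads, 1 lane per biopsy, promoter features, limma-voom, all 22 biopsies or without WT replicates 1 and 2. DESeq2 passed 1 gene higher and 1 lower, and edgeR without the filter on low counts 6 higher and 16 lower. Leaving out single biopsies gave 0 to 1 higher, the 1 being Lingo1 without WT replicate 4, and 0 lower. For features, the test without a filter passed 6 higher and 23 lower, and single biopsies left out gave 0 to 2 lower, at mt-Rnr2 and mt-Nd3 (2 without BERKO replicate 4 and 1, mt-Rnr2, without WT replicate 6). The cause was not tested. No gene passed the genotype by side term under any of its alternatives. The mitochondrial share differed by -1.13 to -0.88 on the log2 scale when single biopsies were left out, passing only without WT replicate 6. The share of unannotated nuclear features turned from 0.05 to -0.000828 without WT replicates 1 and 2, and over single biopsies left out it ran from -0.00411 to 0.0812. Of 2268 alternative values of named genes, 0 changed sign and 15, of 13 genes, passed the threshold. Each alternative list median covers only the members tested in that setting, which can be fewer. Of 560 alternative list medians 23 moved by more than their spread between biopsies (SD), 11 of them with spike-in scaling, which shifts all genes, and 6 in the p53 list. The others were striatal neurons at 0.51 with 1 lane, deep layer neurons at -0.53, the clock at -0.31 and immediate early genes at 0.68 with promoter features, immediate early genes at 0.71 when thinned, and subcortical neurons at -0.07 without WT replicates 1 and 2.

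With the replicate block, mice 2 to 6 gave 0 genes higher and 0 lower, with 313 of 6268 at an unadjusted p under 0.05 against 330 without it, an alternative chosen after seeing the data. Equal numbers name different mice, their deviations correlated by -0.07 to 0.04, and 1 of 5 WT biopsies correlated best with its own number. The smallest library limits low genes: 3 reads are 12.5 CPM in BERKO replicate 5.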
